A study of Mus musculus with 12 samples.

Results

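The growth-restraining genes Cdkn1a, Mdm2, Ccng1, Gadd45a, Gadd45b, Btg2, Sesn1, Sesn2, Phlda3 and Ddit4 were followed across 12 mouse livers. The 10 genes were chosen by name, with earlier results of these data known, out of 18193 genes that the arrays resolved to a single symbol. They were covered by 22 of the 45037 probesets tested, and for each gene the probeset with the highest mean over all 12 arrays gave the value that is reported unless another is named. Among these genes, 7 rose and 1 fell after tunicamycin in mice that lacked ATF6α, against 1 that rose in wild-type mice, and vehicle-treated livers of both genotypes showed no called difference. Of all genes, 15.2% rose and 12.8% fell in mice that lacked ATF6α. In wild-type mice 3.45% rose and 3.86% fell, so the response of all genes also differed in size.

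Each group held 3 mice, measured on 1 array each. The groups were Atf6a-/- mice given tunicamycin (TM), wild-type (Atf6a +/+) mice given TM, Atf6a-/- mice given vehicle and wild-type mice given vehicle. TM blocks N-linked glycosylation and thereby causes misfolded protein to collect in the endoplasmic reticulum (ER), and ATF6α is a sensor of this stress that is cut from the ER membrane to act as a transcription factor of the unfolded protein response. TM was given once by intraperitoneal injection at 1 mg/kg in 150 mM dextrose, which alone was the vehicle, and livers were taken 34 h later. The Atf6a deletion was carried in all cells and not in hepatocytes alone, all animals had been fasted before sacrifice, and ages and sexes were mixed and are not given per animal. Values are log2 expression after RMA (robust multi-array average), so that a difference of 1 is a change by a factor of 2, and levels are compared between groups and not between genes.

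p53 is a transcription factor that is stabilised after DNA damage and other stress. Its best known target Cdkn1a encodes p21, which inhibits cyclin-dependent kinases and holds cells before DNA replication. Mdm2 is the ubiquitin ligase that marks p53 for degradation and is itself a p53 target, Ccng1 (cyclin G1) feeds back on p53 through MDM2, and Phlda3 encodes a p53-induced protein that competes with AKT for membrane lipid. Gadd45a and Gadd45b encode small stress sensors that bind p21 and MAP kinase kinase kinase 4, and Btg2 encodes an anti-proliferative partner of the CCR4-NOT mRNA deadenylase. Sesn1 and Sesn2 (sestrins) and Ddit4 (REDD1) restrain the growth kinase complex mTORC1, the sestrins through GATOR2 and REDD1 through the TSC complex. Several of the genes also have inducers other than p53: Sesn2 and Ddit4 are induced through ATF4 during ER stress in cultured cells, and Sesn1 is induced by FOXO factors as well as p53.

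The promoters of the 10 genes are shown first, since p53 binds a known sequence and several of the genes are known p53 targets. RefSeq windows of 300 bases (250 before to 50 after an annotated start, build GRCm38.p6) were found for all 10 genes, with 12 windows in all because Cdkn1a and Sesn1 had 2 each. Both strands were searched for the p53 decamer, the 10-base unit of its binding sequence, and for a full site of 2 decamers with at most 13 bases between them. A decamer was present in 5 of the 12 windows, 1 each of Cdkn1a, Mdm2, Ccng1, Gadd45a and Sesn1, against 8.36% of 32851 promoters. A full site was present in the first window of Cdkn1a and in no other of the 12, against 0.0731% of promoters. The second Cdkn1a window, at a later start, held no decamer. In the first, the decamers lay from 73 to 64 and from 51 to 42 bases before its start. The full site as marked includes the bases between them. This window is given in full with the full site in capitals, for the gene with the largest response to TM in Atf6a-/- livers:
Cdkn1a, chr17:29090729-29091028, plus strand: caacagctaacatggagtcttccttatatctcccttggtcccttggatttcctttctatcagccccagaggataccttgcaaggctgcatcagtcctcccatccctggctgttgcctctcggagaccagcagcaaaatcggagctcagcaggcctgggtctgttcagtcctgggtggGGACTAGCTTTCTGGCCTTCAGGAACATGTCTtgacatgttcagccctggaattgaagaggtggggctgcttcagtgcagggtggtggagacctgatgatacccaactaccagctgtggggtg

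The other decamers are shown in 60 bases of their own window, with the decamer in capitals, so that the 4 genes can be set beside Cdkn1a. In the order below, the decamers began 186, 185, 40 and 173 bases before the annotated start, that of Sesn1 in its second window.
Mdm2, chr10:117710910-117710969, minus strand: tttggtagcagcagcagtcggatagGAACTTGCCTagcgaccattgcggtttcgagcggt
Ccng1, chr11:40755437-40755496, minus strand: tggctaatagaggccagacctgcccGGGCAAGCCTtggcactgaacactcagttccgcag
Gadd45a, chr6:67037413-67037472, minus strand: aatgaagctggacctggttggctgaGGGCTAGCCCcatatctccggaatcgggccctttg
Sesn1, chr10:41887241-41887300, plus strand: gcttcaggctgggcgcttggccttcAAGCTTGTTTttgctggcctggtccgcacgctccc

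Btg2 had the third largest response in Atf6a-/- livers, after Cdkn1a and Gadd45a, and its window held no p53 decamer by this search. It is printed because it carries the CRE core TGACG on both strands, in an overlapping pair (capitals):
Btg2, chr1:134079106-134079405, minus strand: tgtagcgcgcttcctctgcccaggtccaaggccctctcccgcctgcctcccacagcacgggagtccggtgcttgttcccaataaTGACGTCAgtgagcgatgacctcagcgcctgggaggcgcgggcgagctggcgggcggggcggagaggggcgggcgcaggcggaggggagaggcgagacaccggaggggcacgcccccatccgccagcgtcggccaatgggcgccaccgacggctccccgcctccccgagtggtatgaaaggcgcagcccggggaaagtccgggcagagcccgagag

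TGACG was also present in 1 window each of Mdm2 and Sesn1, which made 3 of 12 windows, against 20.8% of promoters, and the E-box CACGTG in that of Gadd45b, 1 of 12, against 7.15%. The CCAAT-enhancer-binding protein-ATF response element core TGATGNAAT (0.965% of promoters), its ATF4 form TTGCATCA (0.895%), the unfolded protein response element TGACGTGG (0.676%) and the ERSE, which is CCAAT and CCACG with 9 bases between them (0.119%), were present in none of the 12 windows. These matches describe the letters of the windows alone. Of the 5 genes with a decamer, 4 rose and 1 fell in TM-treated Atf6a-/- livers, and of the 5 without one, 3 rose. Among all genes 15.2% were called higher and 12.8% lower there. Whether decamer and response go together was not tested.

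On the whole series, the first principal component took 68.3% of the variance. Arrays of TM-treated Atf6a-/- mice lay between 113.6 and 119.9 on it, those of TM-treated wild-type mice between -12.9 and 29.5, and all 6 vehicle arrays between -61.5 and -55.8. Animal 2 of the TM-treated wild-type group was the one at 29.5, and the other two lay at -12.9 and -11.9. Deposited values were on 1 scale, but the mean of the hybridisation spike-ins was 8.47 in TM-treated Atf6a-/- and 8.70 in TM-treated wild-type livers, against 8.96 and 9.02 in vehicle-treated Atf6a-/- and wild-type livers. The 3 Atf6 probesets were all lower in Atf6a-/- livers after vehicle, without overlap, but not after TM. After vehicle they were 1.71, 0.70 and 0.55 lower in Atf6a-/- than in wild-type livers on the log2 scale, of which the first was called (limma adjusted p = 0.00611) and the others were not (adjusted p = 0.77 and 1). After TM the same probesets were 0.04 (adjusted p = 0.922), 0.53 (adjusted p = 0.00442) and 1.43 (adjusted p = 3.03e-05) higher in Atf6a-/- livers. Whether any of them lies within the deleted part is not given in the sources used here. The vehicle values differed by label, but the TM values were not lower in Atf6a-/- livers. The probesets therefore do not check the labels of TM-treated livers, whose genotype rests on these. The hepatocyte marker list averaged 11.3 to 11.5 per array in TM-treated Atf6a-/- livers, 12.5 to 12.9 in TM-treated wild-type livers and 12.8 to 13.1 in vehicle-treated livers of both genotypes. In each group the means of all 9 measured markers lay above the highest array median.

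**Figure D1:**
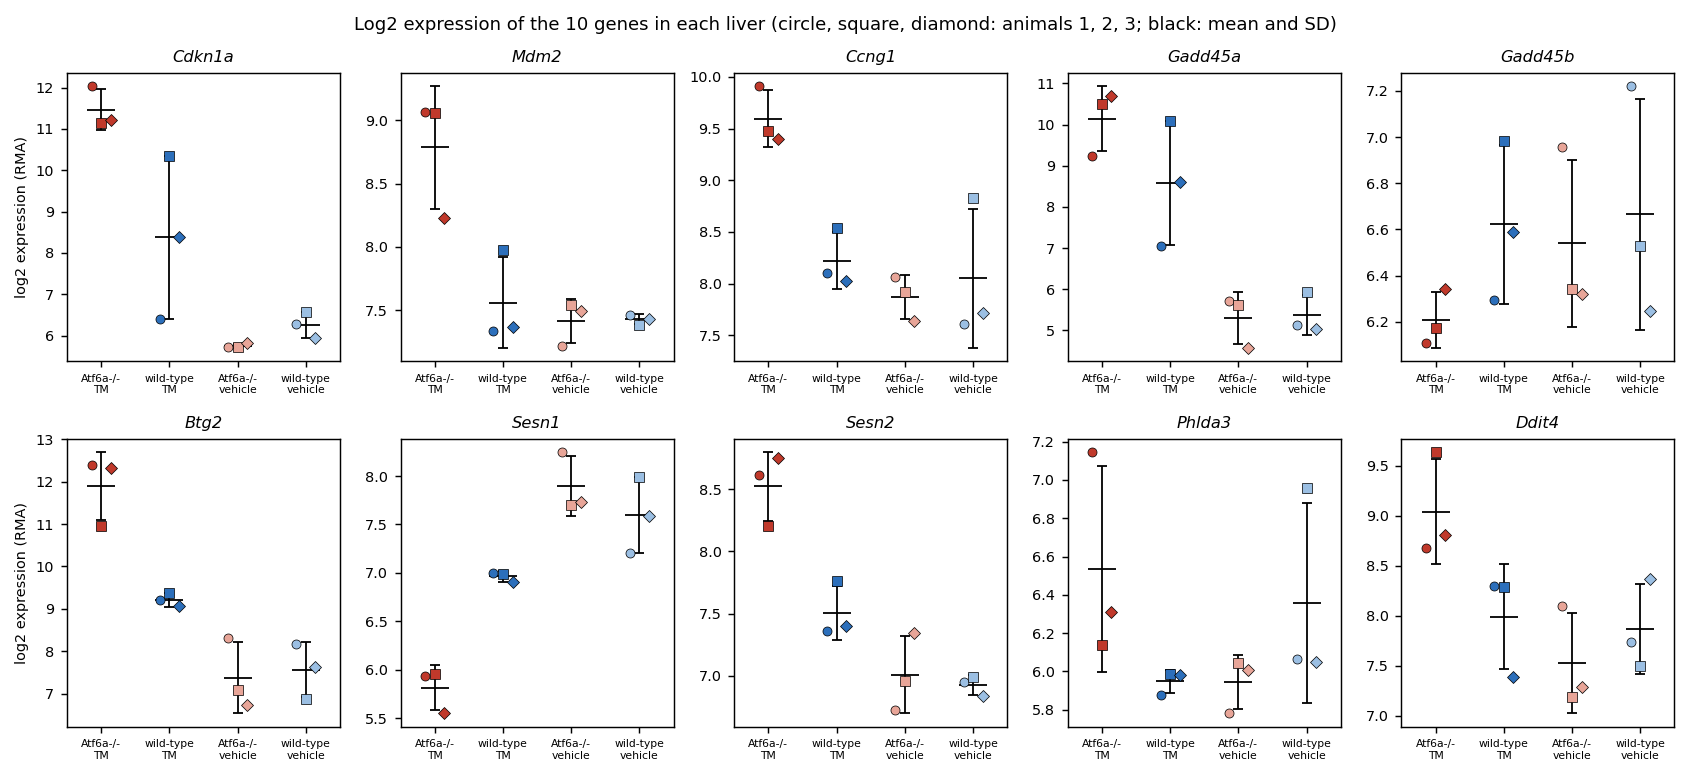
Log2 expression (vertical axis) of the 10 genes in each liver by group (horizontal axis), where circles, squares and diamonds are animals 1, 2 and 3 and black bars are the group mean with its SD. All 3 TM-treated Atf6a-/- livers stood above every other liver in Cdkn1a, Btg2, Ccng1, Mdm2, Sesn2 and Ddit4, and below every other liver in Sesn1.

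Cdkn1a (p21, chr17:29090979-29100722) had the largest response of the 10 genes to TM in Atf6a-/- livers. It measured 12.03, 11.14 and 11.23 in TM-treated Atf6a-/- livers. TM-treated wild-type livers gave 6.40, 10.34 and 8.40. Vehicle-treated Atf6a-/- livers gave 5.72, 5.72 and 5.82, and vehicle-treated wild-type livers 6.29, 6.57 and 5.94. All 3 TM-treated Atf6a-/- livers were therefore above every other liver, whereas the TM-treated wild-type livers ran from within the vehicle range (animal 1) to just under the Atf6a-/- livers (animal 2). In Atf6a-/- livers TM raised Cdkn1a by 5.71 ± 0.70 (SE from limma, n = 3 per group, 52.4-fold, adjusted p = 5.27e-05), rank 7 of 18193 genes. In wild-type livers the difference was 2.11 ± 0.70, which did not pass (adjusted p = 0.107). It was 3.10 without wild-type TM animal 1, and then passed (adjusted p = 0.00237), and 1.13 without wild-type TM animal 2 (adjusted p = 0.233). Between genotypes after TM, Cdkn1a was 3.09 ± 0.70 higher in Atf6a-/- livers (8.50-fold, adjusted p = 0.00772), a call lost when only these 2 groups entered the fit (adjusted p = 0.0608) and by the methods' t-test with or without adjustment (adjusted p = 0.244). The difference was 2.10 without wild-type TM animal 1 (adjusted p = 0.00851) and 4.07 without wild-type TM animal 2 (adjusted p = 5.66e-05). The second Cdkn1a probeset gave the same order of animals within wild-type TM livers, at 6.19, 9.57 and 7.47, and measured 10.94, 10.63 and 10.64 in TM-treated Atf6a-/- livers.

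Gadd45a (chr6:67035096-67037407), which promotes DNA repair and arrest before mitosis, shared this spread. Its values were 9.25, 10.49 and 10.70 in TM-treated Atf6a-/- livers and 7.06, 10.08 and 8.60 in TM-treated wild-type livers. Vehicle-treated livers gave 5.71, 5.61 and 4.57 in Atf6a-/- and 5.14, 5.94 and 5.04 in wild-type mice. Every TM-treated liver was above every vehicle-treated liver, and the genotypes overlapped after TM because wild-type animal 2 lay above Atf6a-/- animal 1. Gadd45a was raised by TM in both genotypes, by 4.85 ± 0.64 in Atf6a-/- livers (28.8-fold, adjusted p = 9.49e-05) and by 3.21 ± 0.64 in wild-type livers (9.22-fold, adjusted p = 0.00995). It was the one gene of the 10 that passed in wild-type livers, where the difference was 3.97 without TM animal 1 (adjusted p = 0.00151) and 2.46 without TM animal 2 (adjusted p = 0.0208). The genotypes differed by 1.57 ± 0.64 after TM (95% interval 0.17 to 2.96, adjusted p = 0.127), and that difference was 0.81 without wild-type TM animal 1 (adjusted p = 0.432) and 2.32 without wild-type TM animal 2, and then passed (adjusted p = 0.00817).

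Btg2 (chr1:134074865-134079155) was 12.40, 10.97 and 12.33 in TM-treated Atf6a-/- livers and 9.20, 9.38 and 9.06 in TM-treated wild-type livers. It was 8.32, 7.08 and 6.73 in vehicle-treated Atf6a-/- livers and 8.17, 6.89 and 7.64 in vehicle-treated wild-type livers. The 3 tiers did not overlap, and unlike Cdkn1a and Gadd45a the TM-treated wild-type livers were within 0.31 of each other. TM raised Btg2 by 4.52 ± 0.46 in Atf6a-/- livers (23.0-fold, adjusted p = 1.23e-05). The wild-type difference of 1.65 ± 0.46 fell just short (3.13-fold, adjusted p = 0.0545) and passed without wild-type vehicle animal 1 (1.95, adjusted p = 0.0468), Atf6a-/- vehicle animal 1 (adjusted p = 0.0268) or Atf6a-/- TM animal 2 (adjusted p = 0.0289). After TM the genotypes differed by 2.68 ± 0.46 (6.42-fold, adjusted p = 0.0013).

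Mdm2 and Ccng1, both of the p53 feedback loop, rose in Atf6a-/- livers by smaller amounts. Mdm2 (chr10:117688875-117710758) was 9.07, 9.06 and 8.23 in TM-treated Atf6a-/- livers, against 7.34, 7.98 and 7.37 in TM-treated wild-type livers. Vehicle-treated livers lay between 7.22 and 7.54, so that only wild-type TM animal 2 left that range in the wild-type group. The rise in Atf6a-/- livers was 1.37 ± 0.22 (2.59-fold, adjusted p = 0.000495), the wild-type difference 0.13 ± 0.22 (adjusted p = 0.838) and the difference between genotypes after TM 1.23 ± 0.22 (adjusted p = 0.00202). Ccng1 (chr11:40748552-40755309) was 9.91, 9.47 and 9.40 in TM-treated Atf6a-/- livers, against 8.11, 8.54 and 8.02 in TM-treated wild-type livers. It was 8.06, 7.92 and 7.64 in vehicle-treated Atf6a-/- livers and 7.61, 8.83 and 7.72 in vehicle-treated wild-type livers, where animal 2 was above every TM-treated wild-type liver. Ccng1 rose by 1.72 ± 0.28 in Atf6a-/- livers (3.29-fold, adjusted p = 0.000512). The wild-type difference was 0.17 ± 0.28 (adjusted p = 0.834).

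The 3 probesets of Ccng1 disagreed about wild-type livers. The second-brightest measured 9.99, 9.66 and 9.86 in TM-treated Atf6a-/- livers and 8.53, 8.68 and 8.59 in TM-treated wild-type livers. The same probeset lay between 7.36 and 7.86 in vehicle-treated Atf6a-/- and between 7.43 and 7.63 in vehicle-treated wild-type livers. On this probeset wild-type livers rose by 1.04 (adjusted p = 0.000599), whereas the dimmest gave 0.65 (adjusted p = 0.189). All 3 probesets were called higher in Atf6a-/- than in wild-type livers after TM. Sesn2 was alike, for its second probeset rose by 0.74 in wild-type livers (adjusted p = 0.00271).

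**Figure D2:**
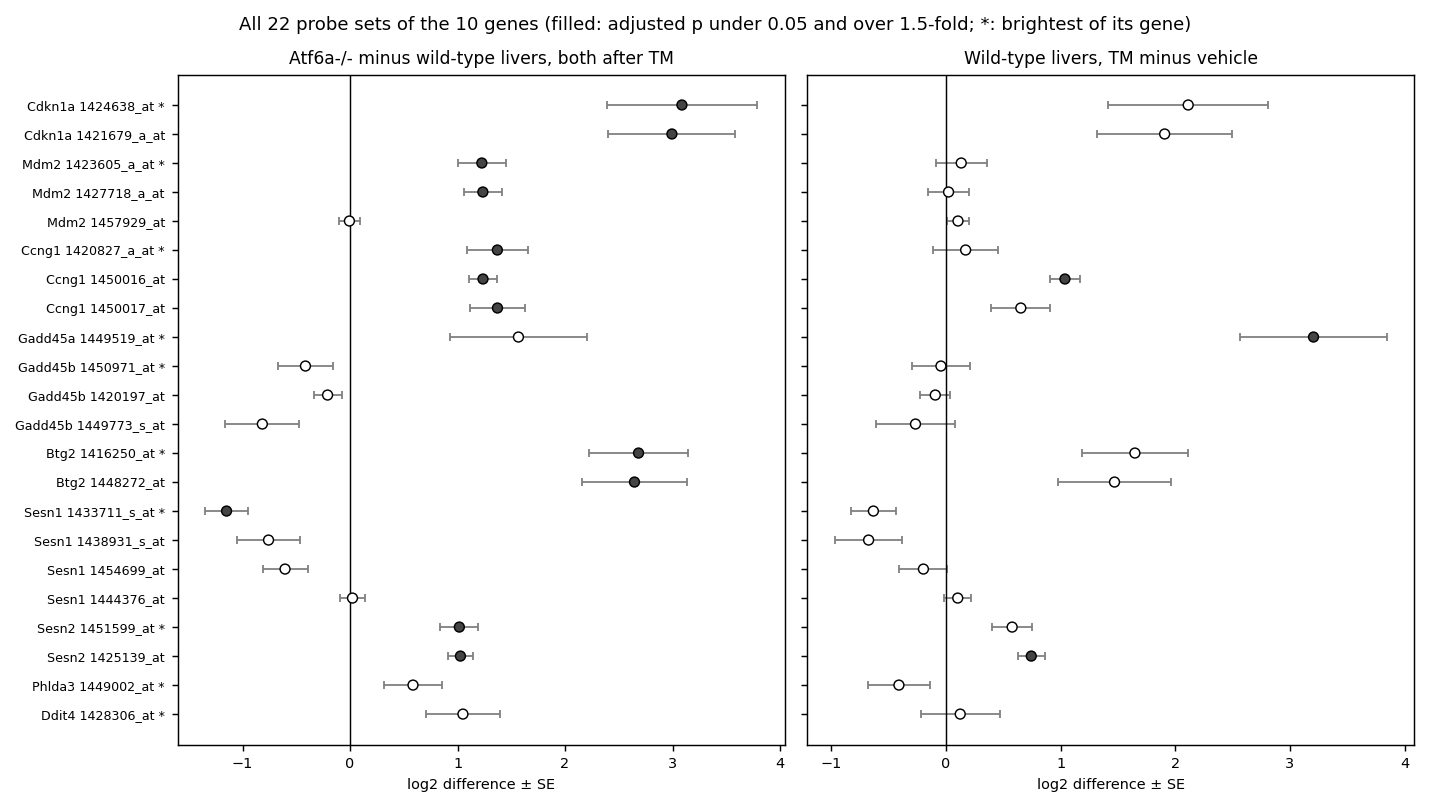
Log2 difference ± SE (horizontal axis) for each of the 22 probesets of the 10 genes, between genotypes after TM (left) and between TM and vehicle in wild-type livers (right), with filled points called changed. Ccng1, Sesn2 and Gadd45a are the genes with a called probeset in wild-type livers, and the unfilled Mdm2 and Sesn1 probesets at 0 in both panels measured about 3.3 in all groups.

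The sestrins moved apart. Sesn2 (chr4:132492804-132510456) measured 8.61, 8.21 and 8.75 in TM-treated Atf6a-/- livers and 7.36, 7.76 and 7.40 in TM-treated wild-type livers. Vehicle-treated livers gave 6.73, 6.96 and 7.35 in Atf6a-/- and 6.95, 6.995 and 6.84 in wild-type mice. Each TM-treated group lay wholly above the vehicle group of its genotype, and the TM-treated Atf6a-/- livers above all others. Sesn2 rose by 1.51 ± 0.18 in Atf6a-/- livers (2.85-fold, adjusted p = 3.77e-05), and the wild-type difference of 0.58 ± 0.18 did not pass (adjusted p = 0.0805). Sesn1 (chr10:41810574-41908436) ran the other way. It was 5.94, 5.96 and 5.55 in TM-treated Atf6a-/- livers and 7.002, 6.99 and 6.90 in TM-treated wild-type livers. It was 8.25, 7.71 and 7.73 in vehicle-treated Atf6a-/- livers and 7.21, 7.99 and 7.59 in vehicle-treated wild-type livers. The groups did not overlap between TM and vehicle in either genotype, nor between genotypes after TM. TM lowered Sesn1 by 2.08 ± 0.20 in Atf6a-/- livers (4.23-fold, adjusted p = 7.63e-06). In wild-type livers it was 0.63 ± 0.20 lower (adjusted p = 0.0894), and this difference passed without wild-type vehicle animal 1 (-0.83, adjusted p = 0.0313). After TM, Atf6a-/- livers were 1.02 ± 0.18 above wild-type livers in Sesn2 (adjusted p = 0.00147) and 1.15 ± 0.20 below them in Sesn1 (adjusted p = 0.00141). Of the 4 Sesn1 probesets, only the brightest was called between genotypes after TM, 2 more had a lower mean in Atf6a-/- livers and 1 was near its floor in all groups.

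Ddit4 (chr10:59949675-59951770), the other mTORC1 brake, was 8.67, 9.64 and 8.81 in TM-treated Atf6a-/- livers and 8.30, 8.29 and 7.39 in TM-treated wild-type livers. Vehicle-treated livers gave 8.10, 7.19 and 7.28 in Atf6a-/- and 7.74, 7.49 and 8.37 in wild-type mice. The TM-treated Atf6a-/- livers were above all others, while the 2 wild-type groups overlapped. The rise was 1.52 ± 0.35 in Atf6a-/- livers (2.86-fold, adjusted p = 0.00509), with a wild-type difference of 0.13 ± 0.35 (95% interval -0.63 to 0.88, adjusted p = 0.911). Between genotypes after TM the difference of 1.05 ± 0.35 fell just short (adjusted p = 0.0549) and passed without wild-type TM animal 2 (1.20, adjusted p = 0.046) or Atf6a-/- vehicle animal 1 (adjusted p = 0.0405), while without wild-type TM animal 3 it was 0.75 (adjusted p = 0.232).

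Phlda3 and Gadd45b did not pass in any comparison. Phlda3 (chr1:135766085-135769134) was 7.15, 6.14 and 6.31 in TM-treated Atf6a-/- livers and 5.88, 5.98 and 5.98 in TM-treated wild-type livers. It was 5.78, 6.04 and 6.01 in vehicle-treated Atf6a-/- livers and 6.07, 6.96 and 6.05 in vehicle-treated wild-type livers, so that one liver each in the first and last group stood far above the rest. The Atf6a-/- response was 0.59 ± 0.27 (95% interval 0.00 to 1.17, adjusted p = 0.134). Gadd45b (chr10:80930091-80932204) was 6.11, 6.17 and 6.34 in TM-treated Atf6a-/- livers and 6.295, 6.98 and 6.59 in TM-treated wild-type livers. It was 6.96, 6.34 and 6.32 in vehicle-treated Atf6a-/- livers and 7.22, 6.53 and 6.25 in vehicle-treated wild-type livers. On this brightest probeset all groups overlapped, although Atf6a-/- TM animals 1 and 2 were the lowest livers. Its response was -0.33 ± 0.25 in Atf6a-/- livers (95% interval -0.88 to 0.22, adjusted p = 0.397) and -0.04 ± 0.25 in wild-type livers (adjusted p = 0.961). The dimmer Gadd45b probesets did not overlap between genotypes after TM. They were lower in Atf6a-/- livers and not called, with differences of -0.82 (limma unadjusted p = 0.0361, adjusted p = 0.142) and -0.21 (adjusted p = 0.362).

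In TM-treated Atf6a-/- against vehicle-treated Atf6a-/- livers, 7 of the 10 genes were called higher and 1 lower, whereas 15.2% of all genes were called higher and 12.8% lower. A gene was called when its adjusted p was under 0.05 and its change over 1.5-fold. The 2 groups did not overlap for 9 of the 10 genes, against 47.8% of all genes, and the median difference was 1.51 for the 10 genes and -0.01 for all genes. In wild-type livers 1 gene was called higher and 0 lower, where 3.45% of all genes were called higher and 3.86% lower. The median there was 0.15, against -0.02 for all genes, and 5 of the 10 genes had no overlap between groups, against 26.8% of all genes. Between genotypes after TM, 5 were called higher in Atf6a-/- livers and 1 lower, with a background of 11.3% higher and 8.45% lower, and 8 did not overlap, against 35.7% of all genes. The median difference of the 10 genes was 1.14, against 0.00. These comparisons share groups of animals and are not independent of each other.

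Of all genes, Atf6 alone (0.0055%) was called by limma between vehicle-treated Atf6a-/- and vehicle-treated wild-type livers. Of the 10 genes 0 were called, and 0 had a limma unadjusted p under 0.05. On these brightest probesets the differences ran from -0.51 for Cdkn1a to 0.30 for Sesn1. A dimmer Sesn1 probeset was 0.78 higher in vehicle-treated Atf6a-/- livers without overlap (limma unadjusted p = 0.00317). Another was 0.62 higher (limma unadjusted p = 0.0566), and neither was called. On their brightest probesets Cdkn1a and Phlda3 had no overlap between these 2 groups, which was so for 8.09% of all genes. Both were lower in vehicle-treated Atf6a-/- livers. The 95% interval of this Cdkn1a difference ran from -2.04 to 1.01. On the second Cdkn1a probeset the 2 groups overlapped, with a difference of -0.10 (limma unadjusted p = 0.868).

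Whether the TM response itself depended on the genotype was tested by the interaction, the response of Atf6a-/- livers minus that of wild-type livers. It was called for 6 of the 10 genes, 5 higher and 1 lower, where 7.56% of all genes were called higher and 6.69% lower. The values were 3.60 ± 0.99 for Cdkn1a (adjusted p = 0.0376), 2.87 ± 0.65 for Btg2 (adjusted p = 0.0143) and -1.45 ± 0.28 for Sesn1 (adjusted p = 0.00623). Smaller differences in response were called for Ccng1 (1.55 ± 0.40, adjusted p = 0.0281), Mdm2 (1.24 ± 0.32, adjusted p = 0.0271) and Sesn2 (0.93 ± 0.25, adjusted p = 0.0339). The interaction was 1.64 ± 0.90 for Gadd45a (95% interval -0.33 to 3.62, adjusted p = 0.343), 1.39 ± 0.49 for Ddit4 (adjusted p = 0.103), 1.00 ± 0.38 for Phlda3 (adjusted p = 0.135) and -0.29 ± 0.36 for Gadd45b (adjusted p = 0.744). With 1 animal left out at a time the number of called genes ran between 2 and 7. On the brightest probesets only the calls of Btg2 and Sesn1 held in all 12 such fits. Gadd45a was called without wild-type TM animal 2 (2.39, adjusted p = 0.0456), and the Cdkn1a interaction was 2.61 without wild-type TM animal 1 and 4.58 without wild-type TM animal 2.

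**Figure D3:**
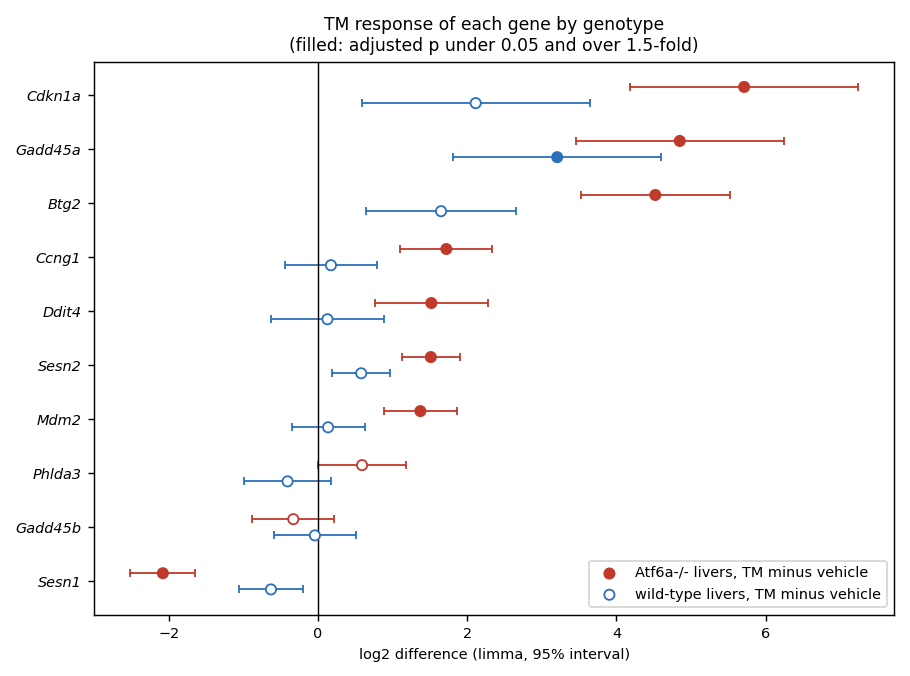
Log2 difference of TM-treated minus vehicle-treated livers (horizontal axis, 95% interval) for each gene (vertical axis), in Atf6a-/- livers (red) and wild-type livers (blue), with filled points called changed. The 7 red points right of 0 and the Sesn1 point left of it are filled, and Gadd45a is the one filled blue point.

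The spread within TM-treated wild-type livers was itself uneven over the genes. Cdkn1a ranged over 3.95 and Gadd45a over 3.02 between its 3 animals, while Sesn1, Phlda3 and Btg2 ranged over 0.10, 0.11 and 0.31. For 8 of the 10 genes the highest of the 3 livers was that of animal 2, for Sesn1 and Ddit4 that of animal 1, and among all genes animal 2 was highest for 34.9%. Animal 2 was also the wild-type TM array nearest to the Atf6a-/- TM arrays on the first principal component. Without it, 8 of the 10 genes were called between genotypes after TM, in place of 6. Xist RNA was high in animal 1 of each group except TM-treated wild-type mice, so that group was the one without a liver of high Xist, and with the Xist level as a covariate 6 genes were still called between genotypes after TM and 5 in the interaction.

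Markers of other cells moved in the same livers. Of the 9 measured hepatocyte markers 7 were called lower by TM in Atf6a-/- livers, against 12.8% of all genes, and 2 in wild-type livers, against 3.86%, and their part in the changes of the 10 genes was not tested. In liver homogenate, fewer cells of a type and less RNA per cell cannot be told apart. Kupffer cell and macrophage markers averaged 7.85 to 8.35 per array in TM-treated Atf6a-/- livers, 7.66 to 8.17 in TM-treated wild-type livers and 8.18 to 8.70 in vehicle-treated livers, with 2 of 11 higher and 6 lower by TM in Atf6a-/- livers. Neutrophil markers averaged 5.45 to 6.07 in TM-treated Atf6a-/- livers, 5.19 to 5.58 in TM-treated wild-type livers and 4.77 to 5.04 in vehicle-treated livers. By TM in Atf6a-/- livers 2 of 9 were higher, S100a8 (4.67, adjusted p = 7.28e-06) and S100a9 (3.73, adjusted p = 0.000189). The other 7 were not called and differed by -0.18 to 0.33. In each group 4 of the 9 had means below the highest array median. Among lymphocyte, endothelial, stellate and fibroblast, cholangiocyte and red cell markers, 0 were called higher and 1 of 8, 2 of 8, 2 of 10, 0 of 5 and 1 of 3 lower in Atf6a-/- livers. Beside all these marker counts, 15.2% of all genes were called higher and 12.8% lower by TM in Atf6a-/- livers. The actin probesets, whose 3' minus 5' difference is a sign of RNA integrity, gave 0.93 in TM-treated Atf6a-/- livers, 1.17 in TM-treated wild-type livers, 1.14 in vehicle-treated Atf6a-/- livers and 1.17 in vehicle-treated wild-type livers.

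The families of Gadd45 and sestrins did not move as units. Gadd45g and Sesn3, the third member of each family, were named after their values were seen. Gadd45g measured 6.90, 6.82 and 7.23 in TM-treated Atf6a-/- livers and 9.58, 8.78 and 9.15 in TM-treated wild-type livers. Vehicle-treated livers gave 7.93, 7.43 and 8.89 in Atf6a-/- and 8.07, 7.28 and 7.53 in wild-type mice. It was thus the only one of the 3 Gadd45 genes with a called fall in TM-treated Atf6a-/- livers (-1.10 ± 0.33, adjusted p = 0.0257) and a called rise in wild-type livers (1.54 ± 0.33, adjusted p = 0.0153), and the responses differed by -2.64 ± 0.47 (adjusted p = 0.00377). Sesn3, a sestrin induced by FOXO factors, was 8.54, 8.39 and 7.81 in TM-treated Atf6a-/- livers and 7.18, 7.08 and 6.97 in TM-treated wild-type livers. Vehicle-treated livers lay between 8.10 and 8.38 in Atf6a-/- and between 7.96 and 8.28 in wild-type mice. TM lowered Sesn3 in wild-type livers (2.01-fold, adjusted p = 0.00384), and in Atf6a-/- livers its response was 0.03 ± 0.17 (adjusted p = 0.922), with a called interaction of 1.04 ± 0.24 (adjusted p = 0.0168). After TM, therefore, Atf6a-/- livers held more Sesn2 and Sesn3 RNA (1.17 ± 0.17 for Sesn3, adjusted p = 0.000455) and less Sesn1 RNA than wild-type livers.

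**Figure D4:**
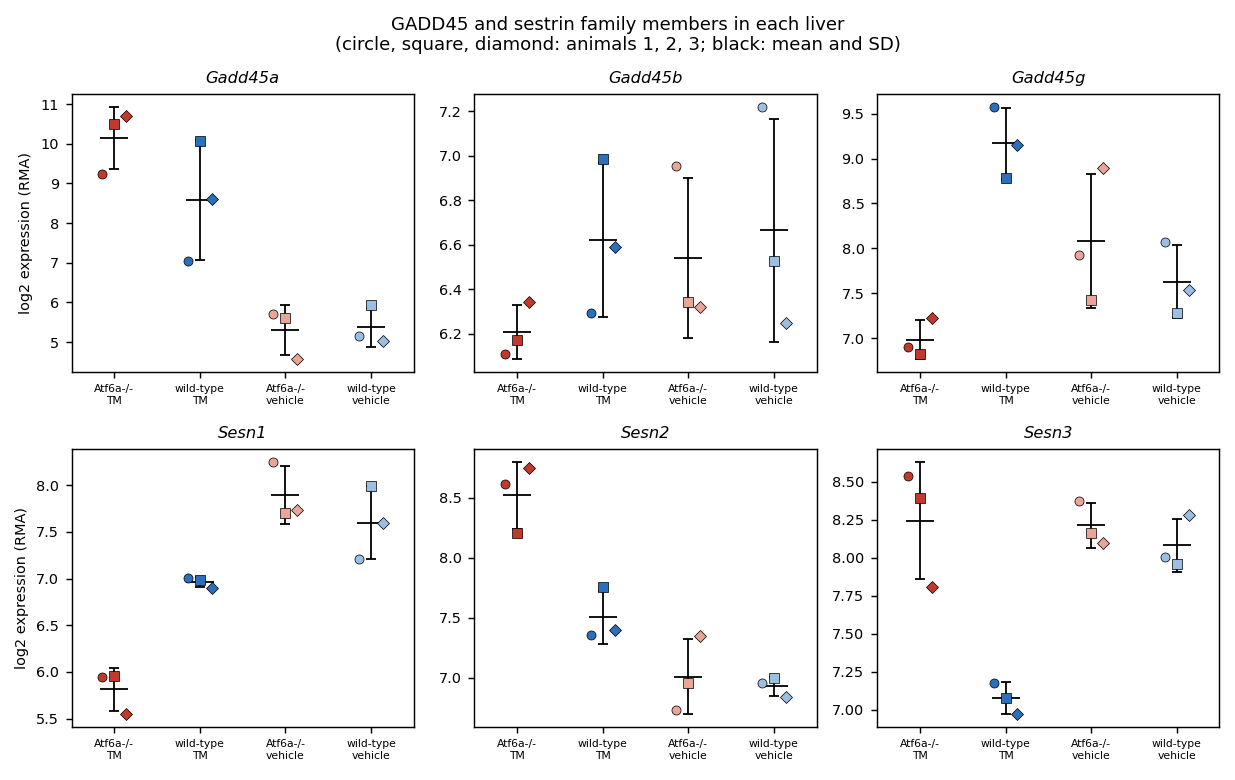
Log2 expression (vertical axis) of the 3 Gadd45 genes and the 3 sestrin genes in each liver by group (horizontal axis), where circles, squares and diamonds are animals 1, 2 and 3 and black bars are the group mean with its SD. Gadd45g is high in TM-treated wild-type livers and Sesn3 is low there, while Gadd45a and Sesn2 are highest in TM-treated Atf6a-/- livers on average.

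Relatives of the other genes, likewise named after their values were seen, changed little or in part. The cyclin-dependent kinase inhibitor Cdkn1b (p27) was called higher by TM in Atf6a-/- livers (0.85 ± 0.24, adjusted p = 0.0172), with 0.74 ± 0.24 in wild-type livers (adjusted p = 0.0982). Cdkn1c (p57) was 8.41, 8.01 and 5.80 in TM-treated Atf6a-/- livers and 5.66, 5.44 and 5.91 in TM-treated wild-type livers, so that 2 of the 3 Atf6a-/- animals lay above every wild-type liver and the difference was called (1.74 ± 0.51, adjusted p = 0.0322). Mdm4, the MDM2 partner that also binds p53, differed by 0.31 ± 0.13 between TM and vehicle in Atf6a-/- livers (adjusted p = 0.0935), and Ccng2 by 0.71 ± 0.25 (adjusted p = 0.0565). Btg1 gave 0.24 ± 0.30 (adjusted p = 0.635).

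The list of p53 with its regulators and targets beyond the 10 genes held 30 genes. Trp53, the gene of p53 itself, and Bax had no probeset with their symbol alone and were not measured. Of the 28 measured, 5 were called higher (17.9%, against 15.2% of all genes) and 6 lower (21.4%, against 12.8%) by TM in Atf6a-/- livers, with a median of 0.13. The largest rises were those of Aen, an exonuclease of p53-dependent cell death (2.93 ± 0.28, adjusted p = 7.17e-06), and Trp53inp1, which promotes p53 activity (2.42 ± 0.34, adjusted p = 0.000143). The largest falls were those of Dcxr, a xylulose reductase (-2.21 ± 0.35, adjusted p = 0.000414), and Perp, a desmosome protein and p53 target (-1.61 ± 0.13, adjusted p = 1.65e-06). In wild-type livers 0 of the 28 were called higher and 2 lower (7.14%, against 3.86% of all genes), Perp (-0.77 ± 0.13) and Sesn3. After TM 7 were higher (25%, against 11.3% of all genes) and 3 lower (10.7%, against 8.45%) in Atf6a-/- than in wild-type livers. In the interaction 5 were higher (17.9%, against 7.56%) and 3 lower (10.7%, against 6.69%).

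Of 18 other growth arrest genes, 5 were called higher (27.8%, against 15.2% of all genes) and 7 lower (38.9%, against 12.8%) by TM in Atf6a-/- livers, with a median of 0.04. In wild-type livers 3 were higher (16.7%, against 3.45%) and 4 lower (22.2%, against 3.86%), with a median of -0.13. The rises were led by Ddit3, which encodes the stress factor CHOP (6.38 ± 0.54, adjusted p = 2.87e-06), and Ppp1r15a, which encodes the phosphatase subunit GADD34 (3.73 ± 0.33, adjusted p = 4.68e-06). The falls were led by Rbl2, a retinoblastoma relative (-3.09 ± 0.16, adjusted p = 7.49e-08, with a mean of 4.58 in TM-treated Atf6a-/- livers that was below the highest array median of 4.71), and Gas1, a growth arrest protein of the cell surface (-2.83 ± 0.24, adjusted p = 3.09e-06). After TM 2 were higher (11.1%, against 11.3% of all genes) and 4 lower (22.2%, against 8.45%) in Atf6a-/- than in wild-type livers. In the interaction 1 was higher (5.56%, against 7.56%) and 4 lower (22.2%, against 6.69%).

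The GATOR, TSC, AMPK and mTORC1 list holds the partners through which sestrins and REDD1 act. Of its 31 measured genes, 10 were higher (32.3%, against 15.2% of all genes), 5 lower (16.1%, against 12.8%) and 16 not called in TM-treated Atf6a-/- livers (median 0.33). In wild-type livers 0 were called by limma, against 7.31% of all genes (7 with an unadjusted p under 0.05, median 0.10). Between the genotypes after TM 8 were higher (25.8%, against 11.3% of all genes) and 4 lower (12.9%, against 8.45%). The interaction was called for 7 higher (22.6%, against 7.56%) and 4 lower (12.9%, against 6.69%). The largest rises were those of Prkab2, a regulatory subunit of AMPK (2.37 ± 0.34, adjusted p = 0.000187), and Eif4ebp1, the translation inhibitor that mTORC1 phosphorylates (2.15 ± 0.23, adjusted p = 1.98e-05). The largest falls were those of Txnip, a thioredoxin inhibitor (-2.09 ± 0.41, adjusted p = 0.00206), and Prkaa2, a catalytic subunit of AMPK (-1.34 ± 0.20, adjusted p = 0.000287).

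Of 19 ATF4 and CHOP targets, 12 were higher (63.2%, against 15.2% of all genes) and 2 lower (10.5%, against 12.8%) by TM in Atf6a-/- livers, with a median of 1.77. In wild-type livers 6 were higher (31.6%, against 3.45%) and 0 lower, with a median of 0.97. Nupr1, a stress-induced chromatin protein, rose by 7.32 ± 0.40 in Atf6a-/- livers (adjusted p = 1.26e-07) and Atf3, a stress-induced repressor, by 7.25 ± 1.25 (adjusted p = 0.000732), against a vehicle mean of 4.69 that was below the highest array median. Shmt2, the mitochondrial serine hydroxymethyltransferase, fell by 1.54 ± 0.14 (adjusted p = 5.52e-06) and Cth, of cysteine synthesis, by 1.09 ± 0.26 (adjusted p = 0.00625). After TM 7 were higher (36.8%, against 11.3% of all genes) and 2 lower (10.5%, against 8.45%) in Atf6a-/- than in wild-type livers. In the interaction 5 were higher (26.3%, against 7.56%) and 1 lower (5.26%, against 6.69%). Of 34 cell division genes 3 were higher (8.82%, against 15.2% of all genes) and 3 lower (8.82%, against 12.8%) by TM in Atf6a-/- livers, with a median of -0.06. In wild-type livers 1 was higher (2.94%, against 3.45%) and 2 were lower (5.88%, against 3.86%). Several genes of this list, among them Mki67, Top2a, Plk1, Bub1, Aurkb and Birc5, had means below the highest array median in both Atf6a-/- groups. This limits how far a fall could be seen. Those called in Atf6a-/- livers were led by Mcm7 (2.44 ± 0.38, adjusted p = 0.00034) and Ccne2 (1.07 ± 0.21, adjusted p = 0.00214, with a mean below the highest array median in both groups), of DNA replication and its onset, and by Ccnd3 (-0.99 ± 0.23, adjusted p = 0.00566) and Cdk1 (-0.92 ± 0.18, adjusted p = 0.00152), a cyclin and a kinase of the cell cycle. After TM 2 were higher (5.88%, against 11.3% of all genes) and 1 lower (2.94%, against 8.45%) in Atf6a-/- than in wild-type livers. In the interaction 1 was higher (2.94%, against 7.56%) and 1 lower (2.94%, against 6.69%).

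**Figure D5:**
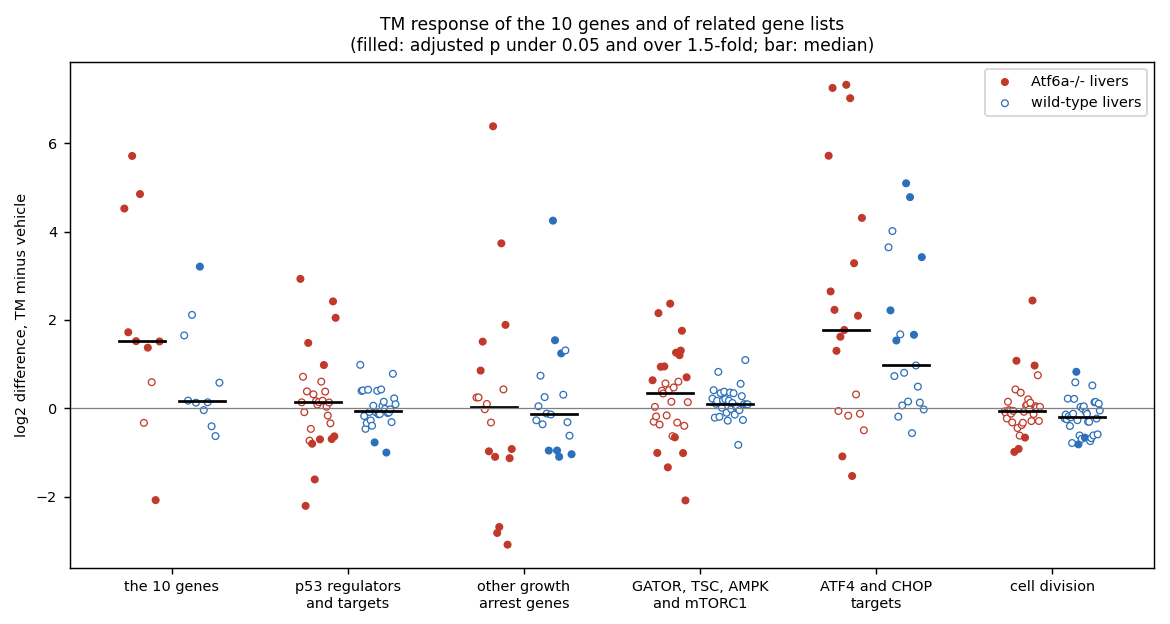
Log2 difference of TM-treated minus vehicle-treated livers (vertical axis) for the 10 genes and for the genes of each related list (horizontal axis), in Atf6a-/- (red, left) and wild-type (blue, right) livers, with filled points called changed and black bars at the median. The 10 genes have a median of 1.51 in Atf6a-/- livers and the ATF4 and CHOP targets one of 1.77, and the other lists have medians between -0.06 and 0.33.

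The genes whose levels ran most like each member over the 12 arrays are given as a description, since the 12 points fall into 4 groups and any gene with a similar order of groups will score high. Among 6586 genes with a mean of at least 7, the closest to Cdkn1a were Smox, spermine oxidase (Pearson r = 0.993), and Tnfrsf12a, the receptor of TWEAK (r = 0.991). The closest to Gadd45a were Ncl, nucleolin (r = 0.98), Zfas1 and Snhg1 (r = 0.978 each), both of them small nucleolar RNA host genes. The closest to Btg2 were Htatsf1 (r = 0.977) and Mios, a GATOR2 subunit (r = 0.973). Sesn1 ran most like Gas1 (r = 0.979) and was also close to Cyp7a1, the first enzyme of the main bile acid pathway (r = 0.972), and Sesn2 ran most like Eya3 (r = 0.981). The best matches were weaker for Ddit4 (Zscan26, r = 0.949), Gadd45b (Angptl8, r = 0.877) and Phlda3 (Gyg, r = 0.828).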

How the data were processed

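Total RNA of liver homogenate from 12 mice was measured on Affymetrix arrays, 1 per animal. The authors deposited 1 table of log2 values made by RMA. Per the labels the processing used affy and limma, with versions not given in the sources used here. Titles and protocols gave 34 h and 1 label field 8 h, and 34 h was used. Of 45101 features, 64 control probesets were left out. Of the 45037 probesets tested, 34945 had a single gene symbol in the platform annotation, 932 had several and 9160 had none. Symbols were taken from that annotation, gene coordinates from RefSeq (GRCm38.p6).

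limma 3.58.1 (R 4.3.3) fitted 1 mean per group over all 12 arrays with moderated tests, two-sided, and Benjamini-Hochberg adjustment over all probesets tested. The number of arrays limits the precision. All 10 genes were named with every probeset. From each pathway list the text names up to 2 genes with the largest rise and 2 with the largest fall among those changed in the Atf6a-/- TM response, and as most alike the genes with the highest correlation. The members, pathway lists (p53 regulators and targets, growth arrest, GATOR to mTORC1, ATF4 and CHOP targets, cell division) and marker lists were chosen with earlier results of these data known. The fit was tested on simulated data. Alternatives were other normalizations, scalings, filters, fold limits, variance models and probesets, the methods' t-test, an Xist covariate, a replicate block and leaving out each animal.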

Additional observations from a re-analysis of the deposited data

Results flagged for a closer look

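Of the 10 genes, 6 had a TM response that differed between the genotypes by the interaction test, with adjusted p between 0.00623 and 0.0376. The response of Atf6a-/- livers exceeded that of wild-type livers by 3.60 in Cdkn1a (5.71 in Atf6a-/- and 2.11 in wild-type livers), by 2.87 in Btg2 (4.52 and 1.65), by 1.55 in Ccng1 (1.72 and 0.17), by 1.24 in Mdm2 (1.37 and 0.13) and by 0.93 in Sesn2 (1.51 and 0.58). In Sesn1 the difference of the responses was -1.45, with -2.08 in Atf6a-/- and -0.63 in wild-type livers. These values are log2 differences with 3 animals per group. With 1 animal left out at a time, the interaction calls of Btg2 and Sesn1 held in all 12 fits. Those of Cdkn1a, Mdm2, Ccng1 and Sesn2 did not. These fits were judged on the brightest probesets. With all animals, dimmer probesets were called for Cdkn1a (3.09), Btg2 (2.97), Mdm2 (1.55, adjusted p = 0.00233), Sesn2 (0.95, adjusted p = 0.00385) and Ccng1 (1.22 and 1.60). Of the dimmer Sesn1 probesets 1 was called (-1.38, adjusted p = 0.0109). Not called were the others of Sesn1 (-1.38, adjusted p = 0.056, and -0.10) and 1 of Mdm2 (-0.14).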

How the results depend on the processing

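Over 27 alternatives, which gave 1050 values for the 10 genes in single comparisons, 960 kept their direction and call, 51 lost and 29 gained a call, and 10 turned direction, of which 0 had been called. The count of genes called in Atf6a-/- livers stayed at 8 with any animal left out, and 0 were called between vehicle groups. In wild-type livers 1 gene was called, against 2 with cyclic loess, scaling to Btf3 and Ppia, dim probesets left out, the mean of all probesets of a gene, a fit of only the groups compared or the Xist covariate, 4 with scaling to the spike-ins, 3 by the methods' t-test, 0 by that t-test after Benjamini-Hochberg adjustment, and between 1 and 3 with 1 animal left out. Between genotypes after TM the count of 6 was 1 by the adjusted t-test and 6 to 8 with 1 animal left out. There, scaling to the spike-ins added calls for Gadd45a (1.80, adjusted p = 0.0435), Phlda3 (0.82, adjusted p = 0.0435) and Ddit4 (1.28, adjusted p = 0.00647). Scaling to Btf3 and Ppia added Gadd45b (-0.85, adjusted p = 0.0171), and leaving out dim probesets added Ddit4. A fit of only the groups compared and the unadjusted t-test each lost Cdkn1a. In the interaction the count of 6 was 3 with scaling to Btf3 and Ppia, and 2 to 7 with 1 animal left out. Over all probesets the methods' t-test called 9199 in Atf6a-/- livers (6981 adjusted), 2580 in wild-type livers (1 adjusted), 5884 between genotypes after TM (1253 adjusted) and 38 after vehicle (0 adjusted). Scaling to Btf3 and Ppia, whose single Ppia probeset also lists Gm9234, moved all Atf6a-/- responses by -0.52, and scaling to the spike-ins moved them by 0.49 and wild-type responses by 0.32.

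Animals of the same number deviated together in only some pairs of groups (8 of 18 pairs with r above 0.1, range -0.18 to 0.37), with 0.18 to 0.37 between animals 1 of the 3 groups where animal 1 had high Xist, and the labels do not say that numbers mark litters or days. With the number as a replicate block the counts were 8 in Atf6a-/- livers, 2 in wild-type livers, 6 between genotypes after TM, 6 in the interaction and 0 after vehicle.

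Directions that turned, all of uncalled differences, were those of Gadd45b in Atf6a-/- livers with spike-in scaling (0.16), and in wild-type livers those of Gadd45b with spike-in scaling (0.28), the Xist covariate (0.08), without wild-type TM animal 1 (0.12) or wild-type vehicle animal 1 (0.23), of Mdm2 without wild-type TM animal 2 (-0.074, range -0.074 to 0.246 with 1 animal left out), of Ccng1 without wild-type vehicle animal 1 (-0.049, range -0.049 to 0.56), and of Ddit4 without wild-type TM animal 1 (-0.028), wild-type TM animal 2 (-0.025) or wild-type vehicle animal 2 (-0.062, range -0.062 to 0.429). The Gadd45b range was -0.252 to 0.234. Gadd45b was called lower in Atf6a-/- livers with scaling to Btf3 and Ppia (-0.85, adjusted p = 0.00883) and Phlda3 higher with scaling to the spike-ins (1.08, adjusted p = 0.00429). The adjusted t-test lost the calls of Mdm2 (adjusted p = 0.0523) and Ddit4 (0.0902) in Atf6a-/- livers and of Gadd45a (0.269) in wild-type livers. The interaction call of Cdkn1a was lost without any one animal except wild-type TM animals 1 and 2 (adjusted p from 0.0571 to 0.0864), that of Mdm2 without any one animal except Atf6a-/- TM animal 3, Atf6a-/- vehicle animal 2 and wild-type TM animal 2 (0.0505 to 0.077), that of Ccng1 without Atf6a-/- TM animal 1, Atf6a-/- vehicle animal 2 or 3 or wild-type TM animal 1 or 3 (0.057 to 0.0782), and that of Sesn2 without any one animal except Atf6a-/- TM animal 2, Atf6a-/- vehicle animal 3 and wild-type TM animal 2 (0.0562 to 0.0893). The cause was not tested.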
